A study of Mus musculus with 4 samples.

Results

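The Frizzled receptor family of the mouse was examined in rostral and presumptive caudal cells of early neural tissue. Every probe set that the platform annotation assigns to a single one of Fzd1 to Fzd10 was taken, which gave 26 probe sets for 10 genes out of 45101 probe sets and 18194 genes. The cells came from the Rax::GFP line of mouse embryonic stem cells (ESCs), which carries a green fluorescent reporter of Rax, a homeobox gene of the rostral forebrain and eye field. They were grown as floating aggregates in serum-free medium (SFEBq) and sorted by FACS at culture day 4.5, and the labels name no further treatment. Rax::GFP+ cells (2 arrays) stood for the rostral tissue, and Rax::GFP- cells (2 arrays) for the presumptive caudal tissue. Each array held RNA pooled from many aggregates, and the study calls the arrays of a group biological duplicates. The GFP- group was defined by the lack of the reporter alone, so it held every other cell of the aggregate. In such bulk RNA, fewer cells of a type and less RNA per cell cannot be told apart.

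Frizzled proteins are multi-pass membrane receptors with an extracellular cysteine-rich domain that binds Wnt ligands. With the co-receptors Lrp5 and Lrp6 they pass the canonical signal through Dishevelled to beta-catenin, and with Ror, Ryk and the Vangl, Celsr and Prickle proteins they act in planar cell polarity. In the neural plate, Wnt signals received through Frizzled receptors give caudal identity, and the most rostral part is kept low in Wnt signal by secreted antagonists. The genes fall into subfamilies of related sequence, which are Fzd1, Fzd2 and Fzd7, then Fzd3 and Fzd6, then Fzd5 and Fzd8, and then Fzd4, Fzd9 and Fzd10. The question was which of these receptors the rostral and the presumptive caudal cells expressed at this stage.

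The values are log2 values made by RMA, which corrects the background, gives all arrays a common distribution and yields 1 value for each probe set. All differences are GFP- minus GFP+ on this log2 scale. Each was tested with limma across all probe sets, with Benjamini-Hochberg adjusted p-values and a threshold of 0.05. The sorted groups carried their regional markers. Of 6 rostral neural markers, 5 were lower in GFP- cells, with Rax at -2.05 (adjusted p = 0.00785 from limma) and Six3 at -0.85 (0.0389). Of 7 measured caudal neural markers, 4 were higher, with Irx3 at 2.59 (0.0175), while En1 and Wnt1 lay below the array median on all arrays. Dropping GFP+ replicate 1 ended the calls of Six3 (0.112) and Irx3 (0.0617), dropping GFP+ replicate 2 that of Six3 (0.0954), and dropping a GFP- array all 3. Of 3 reference genes, none passed. Gapdh differed by -0.02 and Actb by -0.01, while Hprt differed by -0.32 (adjusted p = 0.146 from limma) with groups that did not overlap. Array medians lay between 5.84 and 5.89. Different probe sets bind their targets unequally, so values of different genes, where subtracted or summed, were read only as changes between groups.

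Promoter sequences are shown for Fzd1, Fzd4 and Fzd7, the called genes (2 lower and 1 higher in GFP- cells) that had an entry among the RefSeq promoters of GRCm38.p6. Each run is the 250 bases before the annotated start, read 5′ to 3′ on the strand of the gene. Fzd1 lies on the minus strand (chr5:4758217-4758466), Fzd4 on the plus strand (chr7:89404116-89404365) and Fzd7 on the plus strand (chr1:59481897-59482146). Capitals mark matches on either strand to the GC box (GGGCGG), the CCAAT box (CCAAT), the TATA box (TATAAA) and the Tcf/Lef core (CTTTGAA or CTTTGAT or CTTTGTA or CTTTGTT).
Fzd1: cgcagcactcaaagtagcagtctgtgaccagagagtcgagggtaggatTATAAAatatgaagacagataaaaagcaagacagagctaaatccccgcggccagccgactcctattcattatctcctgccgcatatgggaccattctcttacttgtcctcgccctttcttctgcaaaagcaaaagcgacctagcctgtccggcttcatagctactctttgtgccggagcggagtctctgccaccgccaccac
Fzd4: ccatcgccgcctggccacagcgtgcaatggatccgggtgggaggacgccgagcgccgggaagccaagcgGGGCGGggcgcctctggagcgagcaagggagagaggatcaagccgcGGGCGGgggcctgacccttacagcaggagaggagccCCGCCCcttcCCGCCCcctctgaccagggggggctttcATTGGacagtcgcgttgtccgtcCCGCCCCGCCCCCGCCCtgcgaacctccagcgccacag
Fzd7: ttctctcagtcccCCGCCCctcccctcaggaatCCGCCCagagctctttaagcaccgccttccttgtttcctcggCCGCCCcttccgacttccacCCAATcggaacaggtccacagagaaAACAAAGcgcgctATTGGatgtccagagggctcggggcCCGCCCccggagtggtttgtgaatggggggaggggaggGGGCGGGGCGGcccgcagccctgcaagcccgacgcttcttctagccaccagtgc

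The Fzd1 window held 1 TATA box and 0 GC boxes, and its GC content was 51.2%. The Fzd4 window held 7 GC boxes and 1 CCAAT box at a GC content of 72.8%. Fzd7 had 6 GC boxes, 2 CCAAT boxes and 1 Tcf/Lef core at 65.2%. In each of the windows of Fzd4 and Fzd7, 1 pair of GC boxes shared bases. Of 32851 promoters in the table, 32.7% held a GC box, 33.8% a CCAAT box, 12.4% a TATA box and 14.8% a Tcf/Lef core, and the median GC content was 52.4%. Among the other members with an entry, Fzd5 had 9 GC boxes and 1 CCAAT box, and Fzd9 and Fzd10 had 1 GC box each, with a GC content of 76.4% in all 3. These matches describe letters only. Promoters of Fzd2, Fzd3, Fzd6 and Fzd8 were not analysed here.

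Fzd1, Fzd3 and Fzd4 were lower and Fzd7 was higher in the GFP- cells, which stood for the presumptive caudal tissue. Of the 26 probe sets, 7 passed the test as lower in GFP- cells and 1 as higher, where over all probe sets 7.47% passed, 3.82% as lower and 3.64% as higher. With each gene taken by its most expressed probe set, 3 of 10 Frizzled genes were lower and 1 was higher, beside 2.63% and 5.4% of all genes and 8.02% in either direction. The groups did not overlap at 22 of the 26 probe sets, beside 57.3% of all probe sets, and at 9 of the 10 genes, beside 60.1% of all genes. The median difference of the 10 genes was -0.21, and that of all genes was 0.05. All 10 genes lay above the array median on all 4 arrays at their most expressed probe set, as did 10854 of all 18194 genes. Fzd10 did so narrowly, at 5.92 on GFP+ replicate 1 against a median of 5.89. Of the less expressed Frizzled probe sets, 4 lay below the median on every array. Spread between duplicates was small, with a median SD of 0.031 in GFP+ and 0.041 in GFP- cells over the 10 genes.

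**Figure D1:**
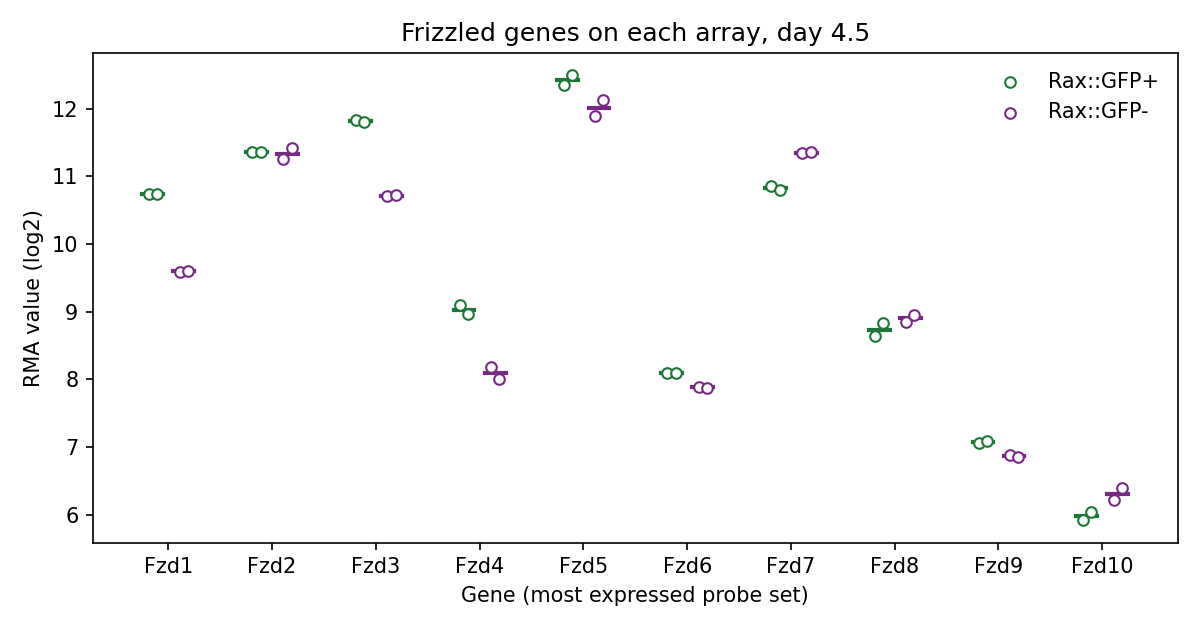
RMA value (log2, y axis) at the most expressed probe set of the 10 Frizzled genes (x axis). Circles are single arrays, 2 in Rax::GFP+ and 2 in Rax::GFP- cells, and bars are group means, with Fzd1 at 10.74 in GFP+ and 9.60 in GFP- cells and Fzd7 at 10.83 and 11.35.

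Markers of other cell types moved with the same sort. Of 6 pluripotency markers, 5 were higher in GFP- cells, Pou5f1 among them (difference 2.67), and their summed linear RMA values ran from 1275 to 1326 in GFP+ and from 9126 to 9580 in GFP- cells. Of 8 endoderm markers, 5 were higher, Sox17 among them (3.09), with sums from 462 to 694 and from 2535 to 2765, and Cer1 was below the array median on all arrays. Of 5 general neural markers, 3 were lower, with sums from 16010 to 16443 and from 11351 to 11774. Of 5 measured markers of mesoderm and primitive streak, 1 was higher (Eomes), and of 5 of neural crest, 1 was higher (Foxd3) and 1 lower (Snai2). Of these lists, Tbx6 and Tfap2a lay below the array median on all arrays. List sums ran from 229 to 246 in GFP+ and from 494 to 637 in GFP- cells for mesoderm. For neural crest they ran from 386 to 393 and from 469 to 507. Such sums can rest on a single gene. The median difference of the neural crest list was -0.02, beside 1.93 at Foxd3. That of the mesoderm list was 0.53, beside 2.48 at Eomes. The part of these cells in the differences of Fzd1, Fzd3, Fzd4 and Fzd7 was not tested.

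Fzd1, a canonical Wnt receptor that overlaps in function with Fzd2, had at its most expressed probe set (1437284_at) values of 10.74 and 10.74 on the GFP+ arrays and 9.59 and 9.60 on the GFP- arrays. Both GFP- arrays lay below both GFP+ arrays, by at least 1.13. The difference was -1.14 (standard error 0.070, 95% interval -1.33 to -0.96, adjusted p = 0.00733 from limma), which makes Fzd1 2.21-fold higher in rostral cells. In size it exceeded the difference of 97.8% of all genes. The second probe set of Fzd1 (1422985_at) had 6.37 and 6.27 in GFP+ and 5.90 and 5.97 in GFP- cells, with a smaller difference of -0.39 that did not pass (adjusted p = 0.0648 from limma), but passed with dim probe sets left out (0.0396) and by Storey's q-value (0.0375). When any 1 array was left out, the difference at the first probe set stayed between -1.15 and -1.14. The call was kept by limma when either GFP+ array was dropped and lost when GFP- replicate 1 (adjusted p = 0.106) or GFP- replicate 2 (0.111) was dropped.

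Loss of calls without an array was common to the whole table. Fewer probe sets passed over the whole table without either GFP+ array than with all 4 arrays. With GFP- replicate 1 dropped limma passed no probe set at all, and the same was so with GFP- replicate 2 dropped. In those fits the lone GFP- array was assumed to vary like the GFP+ arrays. No Frizzled call therefore held on a single GFP- array, and this was so for Fzd1, Fzd3, Fzd4 and Fzd7 alike.

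Fzd3, which guides axon tracts and planar polarity together with Celsr proteins, had 6 probe sets, and all of them had a negative difference, from -1.46 to -0.33, with groups that did not overlap. Of these, 4 passed as lower in GFP- cells. At the most expressed one (1434788_at) the GFP+ arrays had 11.84 and 11.81 and the GFP- arrays 10.71 and 10.72. The gap between the groups was 1.09, far wider than the spread within either. Its difference was -1.11 (standard error 0.070, 95% interval -1.30 to -0.92, adjusted p = 0.00767 from limma), a 2.16-fold higher level in rostral cells. The largest difference was at 1438101_at, with 6.96 and 6.91 in GFP+ against 5.43 and 5.52 in GFP- cells. There the difference was -1.46 (adjusted p = 0.00638 from limma), the largest in size of any Frizzled probe set, and the GFP- arrays lay below their array medians.

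The other called probe sets of Fzd3 had smaller differences. At 1450135_at the values were 9.17 and 9.15 in GFP+ and 8.56 and 8.47 in GFP- cells, a difference of -0.64 (adjusted p = 0.0222 from limma). The probe set 1449730_s_at, whose suffix marks probes shared by several transcripts, had 9.12 and 9.25 against 8.56 and 8.35, a difference of -0.73 (adjusted p = 0.0343). Those that did not pass were 1421157_at with -0.57 (adjusted p = 0.0651), which passed with dim probe sets left out (0.0469), an intensity trend (0.0219) or Storey's q-value (0.0377), and 1420087_at, above the array median on 1 array, with -0.33 (adjusted p = 0.0976). The Fzd3 probe sets thus shared a direction and differed in its size. The calls at 1450135_at and 1449730_s_at were lost without GFP+ replicate 1 (adjusted p = 0.0878 and 0.0955 from limma) or GFP+ replicate 2 (0.0538 and 0.0829), whereas those at 1434788_at and 1438101_at were kept. Dropping either GFP- array ended all of them, with 1434788_at at 0.106 and 0.111 and 1438101_at at 0.0937 and 0.106.

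Fzd4, a receptor of Norrin as well as of Wnt ligands and known for its part in retinal vessels, was lower in GFP- cells at 2 of its 3 probe sets. Its most expressed one (1419301_at) had 9.10 and 8.96 in GFP+ and 8.19 and 8.01 in GFP- cells. The other called one (1434756_at) had 8.91 and 8.76 against 7.93 and 7.83. At both, the highest GFP- array lay below the lowest GFP+ array by at least 0.77. The differences were -0.93 (standard error 0.10, adjusted p = 0.0196 from limma) and -0.96 (standard error 0.091, adjusted p = 0.0147), so that the 2 probe sets differed by less than their standard errors. They correspond to 1.91-fold and 1.94-fold higher levels in rostral cells. The remaining probe set (1449416_at) lay below the array median on all arrays, at 3.65 and 3.61 against 3.27 and 3.34, and did not pass (difference -0.32, adjusted p = 0.0758). Dropping GFP+ replicate 1 ended both calls (adjusted p = 0.0745 and 0.0574 from limma), as did dropping GFP- replicate 1 (0.130 and 0.132) and dropping GFP- replicate 2 (0.136 and 0.128).

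Fzd7, a receptor known for its expression in ESCs and in mesoderm, was the only Frizzled gene that passed as higher in GFP- cells. At its most expressed probe set (1450044_at) the GFP+ arrays had 10.86 and 10.80 and the GFP- arrays 11.34 and 11.36. The groups were 0.48 apart. The difference was 0.52 (standard error 0.072, 95% interval 0.32 to 0.71, adjusted p = 0.0308 from limma), which makes Fzd7 1.43-fold higher in GFP- cells and is larger in size than in 91.4% of all genes. The second probe set (1450043_at) had 6.06 and 6.18 against 6.31 and 6.28, with groups that did not overlap, a difference of 0.18 and an adjusted p of 0.246. The Fzd7 call was lost when any 1 array was left out, with an adjusted p from limma of 0.0962 or 0.0760 when a GFP+ array was dropped and of 0.195 or 0.182 when a GFP- array was, although the difference stayed between 0.49 and 0.54.

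**Figure D2:**
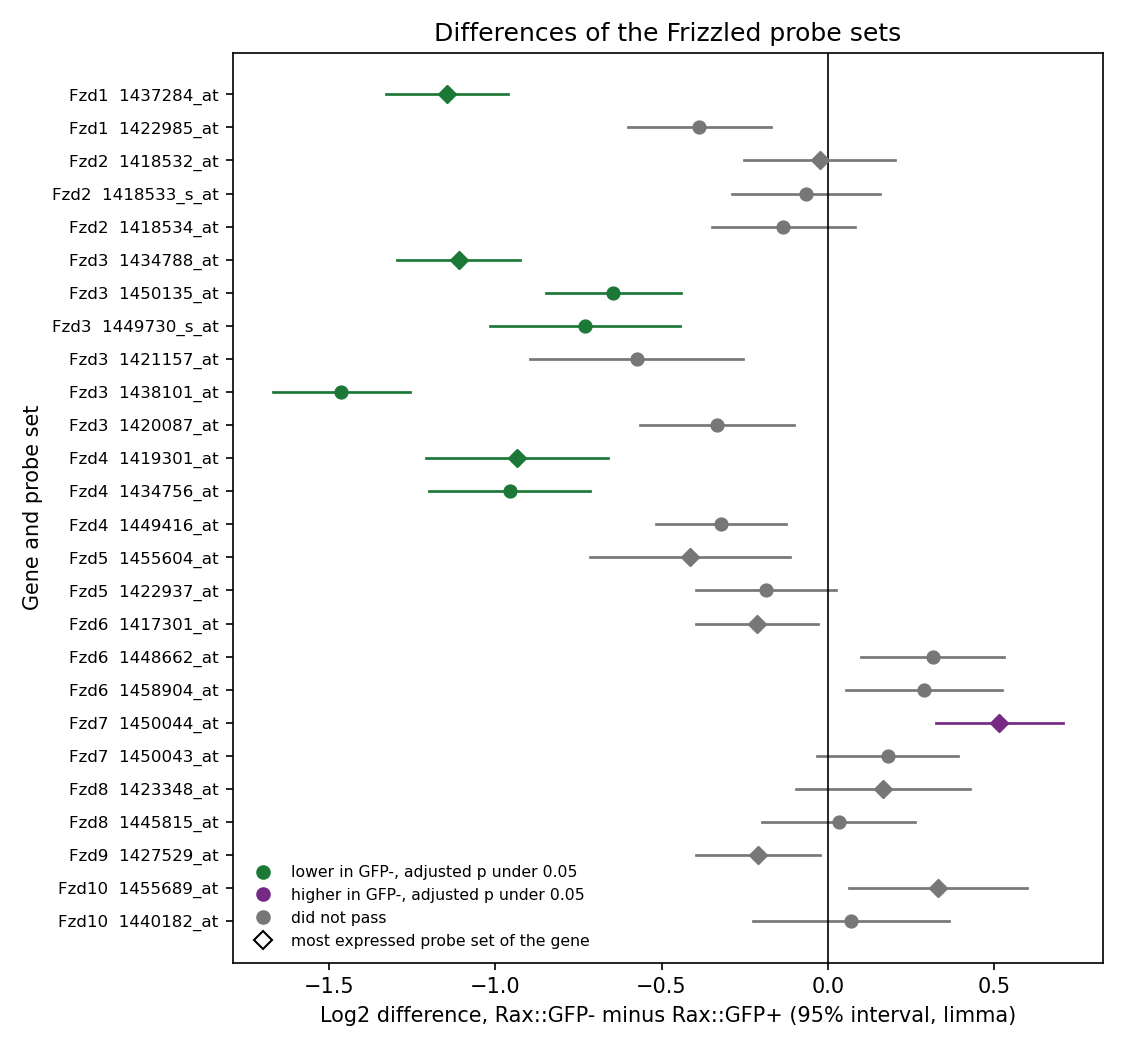
Log2 difference of Rax::GFP- minus Rax::GFP+ cells (x axis) for the 26 Frizzled probe sets (y axis), with 95% intervals from limma on 4 arrays. Diamonds mark the most expressed probe set of each gene and colours the 7 probe sets that passed as lower and the 1 that passed as higher. All 6 probe sets of Fzd3 lie left of 0, and those of Fzd6 lie on both sides.

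Fzd5, Fzd6, Fzd9 and Fzd10 had groups that did not overlap at their most expressed probe set, but differences that did not pass. Fzd5, a receptor of the eye field and optic vesicle, had at 1455604_at 12.35 and 12.49 in GFP+ and 11.89 and 12.12 in GFP- cells. The difference was -0.42 (95% interval -0.72 to -0.11, adjusted p = 0.106 from limma), and the GFP- duplicates had an SD of 0.16. Its other probe set (1422937_at) had a difference of -0.19 (95% interval -0.40 to 0.02). With an intensity trend in the variance, the first of these passed (adjusted p = 0.0241).

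Fzd6, which acts in planar polarity and hair patterning, differed in direction between its probe sets. The most expressed one (1417301_at) had 8.10 and 8.09 in GFP+ and 7.89 and 7.87 in GFP- cells, a difference of -0.21 (adjusted p = 0.146 from limma). The other 2 (1448662_at and 1458904_at) lay below the array median on all arrays and had differences of 0.31 and 0.29 (adjusted p = 0.0939 and 0.130). The groups did not overlap at any of the 3, as at 57.3% of all probe sets, and none of the 3 passed. Both probe sets with a positive difference had log2 values under 5 on all arrays. Only 1417301_at thus gave a direction of Fzd6 above the array median. Fzd9, a receptor of the developing hippocampus, had 7.06 and 7.09 in GFP+ and 6.88 and 6.86 in GFP- cells at its single probe set (1427529_at), a difference of -0.21 (95% interval -0.40 to -0.02, adjusted p = 0.155). Fzd10, known from the dorsal neural tube, had 5.92 and 6.05 in GFP+ and 6.22 and 6.40 in GFP- cells at 1455689_at, a difference of 0.33 (95% interval 0.06 to 0.60, adjusted p = 0.130). Its second probe set (1440182_at) was dim on every array, between 3.03 and 3.28, with groups that overlapped. A further 2 probe sets name Fzd10os, the gene opposite to Fzd10, and were not counted as members.

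Fzd2 and Fzd8 had small differences. Fzd2, a receptor of both canonical and Wnt5a signals, had 11.36 and 11.37 in GFP+ and 11.26 and 11.41 in GFP- cells at 1418532_at, and the groups overlapped. Its difference was -0.02 (95% interval -0.25 to 0.20, adjusted p = 0.896 from limma), and it turned to 0.014 after median centring of the arrays. The other probe sets of Fzd2 had differences of -0.07 (1418533_s_at) and -0.13 (1418534_at), with groups that did not overlap at the latter. A change of Fzd2 as large as the -1.14 of Fzd1 lay outside each of these intervals, the lowest bound of which was -0.35. Fzd8, an anterior receptor paired by sequence with Fzd5, had 8.64 and 8.83 in GFP+ and 8.85 and 8.95 in GFP- cells at 1423348_at. The groups did not overlap there, with a gap of 0.023. The difference was 0.16 (95% interval -0.10 to 0.43, adjusted p = 0.367 from limma), and at 1445815_at it was 0.03 (95% interval -0.20 to 0.26).

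Genes of one subfamily were also set against each other on the same array, as a description. For each of 8 pairs within a subfamily, the log2 value of one gene minus that of the other was taken on each array, so that a shift of the whole array cancels. Fzd1 minus Fzd7 was -0.12 and -0.07 in GFP+ and -1.76 and -1.75 in GFP- cells, a change of -1.66. Fzd1 minus Fzd2 was -0.61 and -0.63 against -1.68 and -1.81, a change of -1.12. In the same subfamily, Fzd2 minus Fzd7 changed by -0.54, from 0.50 and 0.56 to -0.08 and 0.06. In these 3 pairs both GFP- values lay below both GFP+ values, a separation without overlap in one direction or the other that 61.2% of all pairs of genes had.

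Fzd3 minus Fzd6 was 3.74 and 3.72 in GFP+ and 2.82 and 2.85 in GFP- cells, a change of -0.90. Fzd4 minus Fzd10 was 3.19 and 2.92 against 1.96 and 1.61, a change of -1.26, and Fzd4 minus Fzd9 changed by -0.72. Fzd9 minus Fzd10 and Fzd5 minus Fzd8 changed by -0.54 and -0.58. The groups did not overlap in any of the 8 pairs, which reuse the same 10 genes and so are not independent of each other or of the single-gene values. Each had p = 0.333 in a two-sided exact permutation test over the arrays (adjusted p = 0.333 over the 8 pairs), which is the smallest p that 2 arrays against 2 allow, so this design could not pass the threshold. With the mean of all probe sets of each gene, the change of Fzd1 against Fzd2 was -0.69, and that of Fzd1 against Fzd7 was -1.11.

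**Figure D3:**
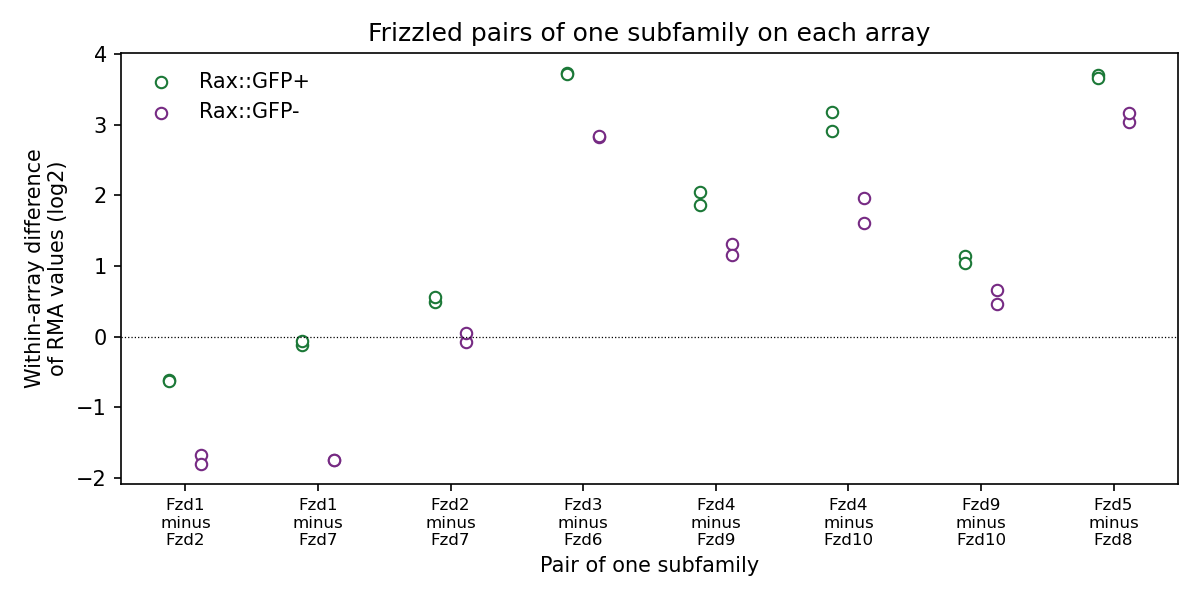
Log2 value of one Frizzled gene minus another of its subfamily on the same array (y axis) for 8 pairs (x axis), at the most expressed probe sets. Circles are arrays, 2 in Rax::GFP+ and 2 in Rax::GFP- cells. The groups are apart in every pair, most in Fzd1 minus Fzd7, which changed by -1.66. Only the change between groups can be read, since probe sets of different genes are not on one scale.

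The genes that work with Frizzled receptors changed in both directions. Of 71 genes in 8 lists of the pathway, all measured, 6 passed as higher in GFP- cells and 5 as lower by the most expressed probe set (15.5% called, beside 8.02% of all genes), with median differences per list from -0.23 to 0.16. An unadjusted p under 0.05 from limma was found at 26 of the 71 genes, beside 4700 of all 18194 genes. Among 11 co-receptors and other Wnt receptors, 1 was higher and none was lower (4 had an unadjusted p under 0.05 from limma). It was Ror1, a receptor of Wnt5a, with 8.54 and 8.63 in GFP+ and 10.31 and 10.18 in GFP- cells, a difference of 1.66 (adjusted p = 0.00638 from limma). The glypican Gpc3 did not pass (-0.36, adjusted p = 0.0707), nor did the co-receptor Lrp6 (-0.03, adjusted p = 0.840), which is named outside the rule. Lrp5 lay below the array median on all arrays.

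Of 12 genes of receptor turnover and trafficking, 1 was higher and 2 were lower, with a median difference of 0.10. Rspo1, an R-spondin that spares Frizzled from degradation, had 7.95 and 7.89 in GFP+ and 8.80 and 8.74 in GFP- cells, a difference of 0.85 (adjusted p = 0.0128 from limma). Its receptor Lgr4 was lower, at 11.48 and 11.48 against 10.99 and 11.02 (-0.48, adjusted p = 0.0339). Shisa2, which holds Frizzled back in the endoplasmic reticulum, was lower as well, at 12.60 and 12.60 against 11.88 and 11.81 (-0.75, adjusted p = 0.0152). The R-spondin and its receptor thus had opposite directions, and Shisa2 shared that of Fzd1, Fzd3 and Fzd4. The deubiquitinase Usp8 did not pass (0.24, adjusted p = 0.148).

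Of 5 secreted Frizzled-related proteins, which carry a Frizzled-like cysteine-rich domain and bind Wnt outside the cell, 2 were lower and none was higher (3 had an unadjusted p under 0.05 from limma), with a median difference of -0.20. They were Sfrp1 (-0.65, adjusted p = 0.0415 from limma) and Frzb (-0.63, adjusted p = 0.0358), while Sfrp2 differed by -0.20 (adjusted p = 0.171). Of 20 Frizzled ligands, 6 had an unadjusted p under 0.05 from limma and 2 passed. Wnt4 was higher (0.72, adjusted p = 0.0278) and Wnt5b was lower, at 8.54 and 8.47 in GFP+ and 7.07 and 6.96 in GFP- cells (-1.49, adjusted p = 0.00638), at a probe set whose suffix marks probes that may bind other transcripts. Wnt8b, named after its values were seen, had the largest positive difference among the ligands, 1.48, at 5.40 and 4.83 in GFP+ against 7.06 and 6.13 in GFP- cells, and did not pass (adjusted p = 0.0894). Of the ligands, 10 lay below the array median on all arrays, Norrin (Ndp) among them, and Wnt7b did not pass (0.38, adjusted p = 0.262). Porcn, which acylates Wnt ligands so that they can bind Frizzled, was higher, at 6.06 and 5.99 against 6.55 and 6.57 (0.54, adjusted p = 0.0297), and the carrier Wls differed by -0.30 (adjusted p = 0.405).

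Within the cell, 0 of 13 genes of the relay passed limma, where 1 had an unadjusted p under 0.05, and Ctnnb1, which encodes beta-catenin, differed by -0.0047 (95% interval -0.19 to 0.18). Of 7 core planar polarity partners, 2 were higher and none was lower (4 had an unadjusted p under 0.05 from limma). Prickle1, a cytoplasmic partner of Vangl proteins, had 8.49 and 8.42 in GFP+ and 9.55 and 9.55 in GFP- cells, a difference of 1.09 (adjusted p = 0.00829 from limma). Prickle2 had 7.38 and 7.40 against 7.79 and 7.81 (0.41, adjusted p = 0.0432), and Vangl2 differed by -0.05 (adjusted p = 0.698). Celsr2, of the Celsr family that works with Fzd3 and named after its values were seen, had 9.40 and 9.35 against 8.94 and 9.03, a difference of -0.39 that did not pass (adjusted p = 0.0594). Under 4 of the alternatives 1 gene of this list passed as lower. Smo, the hedgehog transducer and the relative of Frizzled in the same receptor class, differed by -0.23 (adjusted p = 0.142).

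**Figure D4:**
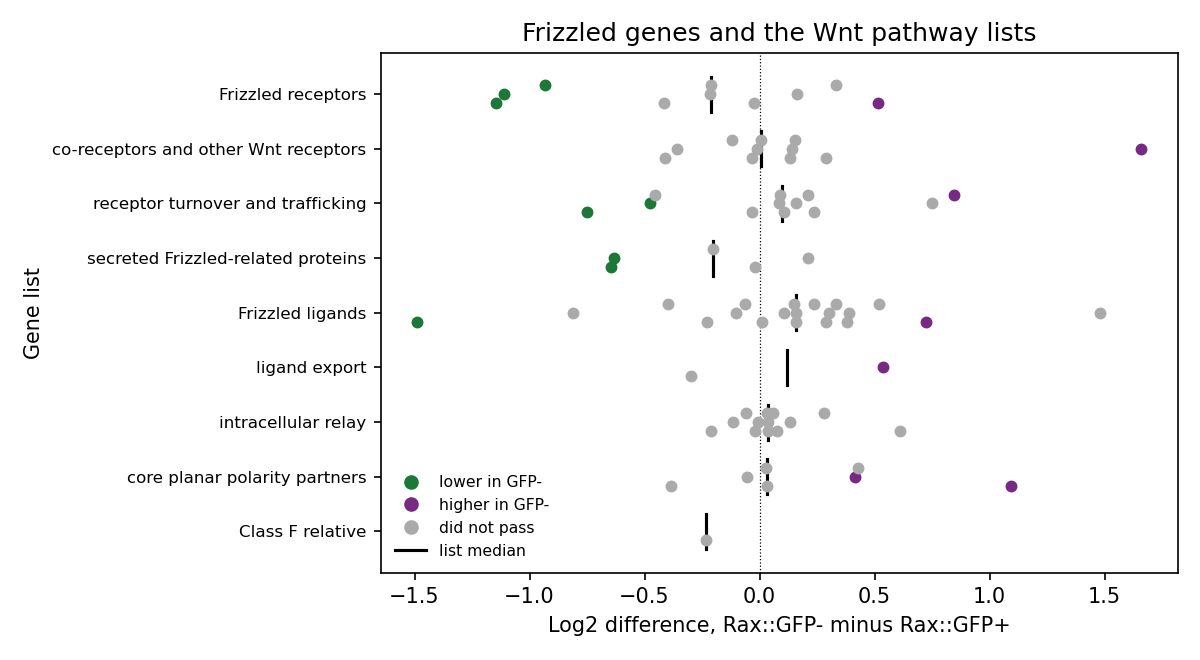
Log2 difference of Rax::GFP- minus Rax::GFP+ cells (x axis) for the Frizzled genes and 8 lists of Wnt pathway genes (y axis), at the most expressed probe set of a gene. Circles are genes, coloured where limma's adjusted p was under 0.05, and black bars are list medians, with -0.21 for the Frizzled genes.

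Dropping GFP+ replicate 1 left 2 pathway genes higher and 1 lower, dropping GFP+ replicate 2 left 4 and 2, and dropping either GFP- array left 0, where limma passed no probe set at all. Ror1, Wnt5b and Prickle1 passed without either GFP+ array. Lgr4, Sfrp1, Frzb, Porcn and Prickle2 failed without either of them. Of the GFP+ arrays, only the loss of replicate 1 ended the calls of Rspo1, Shisa2 and Wnt4.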

How the data were processed

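RNA of sorted day-4.5 cells was hybridised to Affymetrix mouse genome arrays. The deposited log2 values, made by the authors with RMA in R 2.13.0 per the labels, give each probe set a level on every array. The annotation gave 34958 probe sets 1 symbol, 932 several and 9211 none, and 0 Frizzled symbols differed from the GRCm38.p6 RefSeq table. A group fit used limma 3.58.1 in R 4.3.3 over all probe sets, 64 control probe sets included, with residual and prior degrees of freedom of 2 and 2.52, and was tested on simulated data. The number of arrays limits the precision. A gene was represented by its probe set with the highest mean over 4 arrays. Named were all Frizzled genes and, of each list, up to 4 called genes with the largest differences and the most expressed gene that did not pass. The members and lists were chosen with earlier results of these data known. Lists are described by counts, with no set test. Promoters were scanned with Python 3.11.15. Alternatives were a replicate block, a filter on dim probe sets (log2 of at least 5 on at least 2 arrays), median centring, quantile normalization, an intensity trend, array weights, Storey's q-value, gene means, and leaving out each array. The marker genes T and Pax2 had no value by this annotation rule and were not analysed here.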

Additional observations from a re-analysis of the deposited data

How the results depend on the processing

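The calls of Fzd1, Fzd3, Fzd4 and Fzd7 passed with dim probe sets left out, median centring, quantile normalization, an intensity trend, array weights and Storey's q-value, and with a gene's probe sets averaged 3 Frizzled genes were lower and 1 was higher. The labels do not say that the replicate number pairs arrays across groups, and the correlation of the duplicate deviations of the groups was -0.05 over all probe sets and 0.38 over the 26 Frizzled probe sets. With the number as a block, limma called 0 of 45101 probe sets. Thus 0 Frizzled probe sets or genes and 0 pathway genes were higher or lower. The lowest adjusted p among the 26 Frizzled probe sets was 0.0589. An unadjusted p under 0.05 was found at 16 of them, beside 18 in the main fit, where 12023 of all 45101 probe sets had one. With one array left out, 0 Frizzled probe sets and genes were called higher, 0 to 5 probe sets and 0 to 3 genes lower, and 0 to 4 pathway genes higher and 0 to 2 lower. Frizzled probe sets called lower went from 7 to 9 without dim probe sets or with an intensity trend and to 10 with Storey's q-value. Calls over all probe sets, in either direction, rose as well, from 3367 in the main fit. They were 4675 without dim probe sets (29042 tested), 6962 with an intensity trend and 6134 with Storey's q-value. Pathway genes called lower rose from 5 to 8 without dim probe sets or with Storey's q-value, to 11 with an intensity trend (12 higher) and to 9 with gene means, and the cause was not tested. Leaving out one array moved the change of Fzd1 against Fzd2 between -1.19 and -1.05, of Fzd1 against Fzd7 between -1.68 and -1.64, and of Fzd5 against Fzd8 between -0.65 and -0.51. Signs turned at 4 Frizzled probe sets, none of which passed. Fzd2 at 1418532_at went to 0.014 with median centring, and with one array left out it ran from -0.0996 to 0.051, while 1418533_s_at ran from -0.14 to 0.0044, Fzd8 at 1445815_at from -0.032 to 0.096 and Fzd10 at 1440182_at from -0.042 to 0.18. The 4 Frizzled probe sets under the filter are dim, and low signal limits what they can show.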
